A study of Mus musculus with 6 samples.

Results

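The genes that carry, import, store and export iron were compared between MMTV-FOXC1 transgenic and wildtype mammary glands at lactation day 2. The set holds 9 of the 21950 genes in the expression table, taken by gene name: the iron carrier Trf, the importers Tfrc and Slc11a2, the exporter Slc40a1, the ferritins Fth1 and Ftl1, the ferroxidases Cp and Heph, and the heme oxygenase Hmox1. The transgenic mice carry a Myc-tagged human FOXC1 cDNA driven by MMTV, a promoter and enhancer taken from a mouse mammary tumor virus, which is active mainly in mammary epithelium, depends on hormones and can leak into other tissues. The wildtype controls carry no transgene, and both genotypes are FVB/NJ mice at postnatal week 11. Total RNA was taken from mammary tissue slides, although the labels name epithelial cells as the source, and the sources used here do not say which transgenic line or how many animals were sequenced.

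The labels give 3 transgenic and 3 wildtype samples, but within a genotype the columns looked like repeated counts of the same material. A chi-square test of the reads of each gene gave 1.05 per degree of freedom over 7490 genes among the transgenic columns and 1.02 over 5835 genes among the wildtype columns, where 1 is what repeated counting of 1 library gives. The 3 columns were therefore averaged and counted as 1 library, so that n = 1 per genotype, no difference between genotypes has a replicate check, and no p-value is given. Intervals below cover counting error only (95%), and amplified reads are not independent molecules. Each transgenic column held 11770867 to 11775866 reads and each wildtype column 3492861 to 3496335. Mouse Foxc1, whose reads do not measure the human transgene, had 9.45, 9.56 and 8.21 RPKM (reads scaled to gene length and to the mapped reads of the library) in the transgenic columns, against 2.53, 1.66 and 2.90 RPKM in the wildtype columns.

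Iron travels in plasma and in milk bound to transferrin and enters cells when transferrin is taken up by the transferrin receptor. Inside the endosome the iron is reduced and moved to the cytosol by the transporter encoded by Slc11a2. It is then used for heme and iron-sulfur clusters, stored in ferritin, or released through ferroportin, the product of Slc40a1, with a ferroxidase oxidizing it on the way out. Much of this control acts on mRNA: iron regulatory proteins bind a hairpin, the iron-responsive element, in the 5′ UTR of ferritin and ferroportin mRNAs, where they block translation, and in the 3′ UTR of Tfrc mRNA, where they protect it from decay. In the lactating gland, secretory cells take up iron for their own use and for milk, and rodent mammary epithelium makes transferrin and secretes it.

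The hairpins that set these mRNAs apart were found in the GENCODE M21 transcripts (GRCm38) and are shown because they sort the genes by how iron acts on them. The search was for a C, an arm of 5 bases, the loop CAGTGN with any last base but G, and a second arm of 5 bases that pairs with the first throughout, G-U pairs allowed, on the transcribed strand. The loop is in capitals. Sequences are written as DNA, 5′ to 3′.
Fth1, 5′ UTR, chr19:9982738-9982754, plus strand: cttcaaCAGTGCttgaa
Ftl1, 5′ UTR, chr7:45459785-45459801, minus strand: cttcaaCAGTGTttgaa
Slc40a1, 5′ UTR, chr1:45925471-45925487, minus strand: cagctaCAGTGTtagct
Tfrc, 3′ UTR, chr16:32631225-32631241, plus strand: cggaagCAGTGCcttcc
Tfrc, 3′ UTR, chr16:32631604-32631620, plus strand: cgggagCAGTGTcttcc
Tfrc, 3′ UTR, chr16:32631669-32631685, plus strand: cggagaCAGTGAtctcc
Tfrc, 3′ UTR, chr16:32631716-32631732, plus strand: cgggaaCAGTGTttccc

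The ferritin hairpins share both arms and differ only in the last loop base. Tfrc held 4 matches within its 3′ UTR of 2458 bases. A match was found in the 5′ UTR of 23 of 20597 genes (0.112%), 3 of them in the iron set, and in the 3′ UTR of 100 of 20979 genes (0.477%), 1 of them in the set. Trf, Slc11a2, Cp, Heph and Hmox1 had no match, which says only that this form is not in their annotated UTRs. A hairpin whose arms do not pair throughout would be missed, so a lack of match does not show that iron has no such control. A match is a description of sequence and not a measure of binding.

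The iron genes did not all move one way. In transgenic glands the carrier and the transferrin receptor were 14.2-fold and 12.7-fold lower in RPKM, while the light ferritin chain and heme oxygenase were 5.62-fold and 13.5-fold higher. The heavy ferritin chain and ceruloplasmin were nearly level in RPKM. In bulk RNA, fewer cells of a type and less RNA per cell cannot be told apart. Changes are given as log2 of transgenic over wildtype RPKM, each plus 1. A gene was called past the size threshold at a change beyond 2 on this scale, in either direction. The study set the same 2 on a log2 fold change from DESeq2, together with an FDR limit. Here 1 RPKM is added and no FDR is used, so calls can differ from those of the study. All 9 genes passed the filter of a mean of 2 RPKM in either genotype, which kept 13118 genes. Of the 9, Ftl1 and Hmox1 were called higher and Trf and Tfrc lower, and 5 lay within the threshold. Over all genes kept, 16.1% were called higher and 1.23% lower.

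RPKM is a share of a library, and the secretory genes fill much of the wildtype one. The 10 milk genes listed as markers of secretory cells took 0.276% of the reads over genes in transgenic glands and 42.8% in wildtype glands, and the median log2 change of all genes kept was 1.06. A second scale was therefore used, in which the libraries were matched by the median ratio of 12677 genes, a shift of 1.24 on the log2 scale, or 2.35-fold. This median-of-ratios scale is called the relative scale below. On it the median of all genes kept was 0.036, Trf and Tfrc were still called lower, none of the 9 was called higher, and 7 lay within the threshold. These calls keep the added 1 RPKM, which lessens the change of low genes. The background on the relative scale was 4.17% higher and 3.66% lower. The median log2 change of the 9 genes was 0.16 in RPKM and −1.08 on the relative scale.

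**Figure D1:**
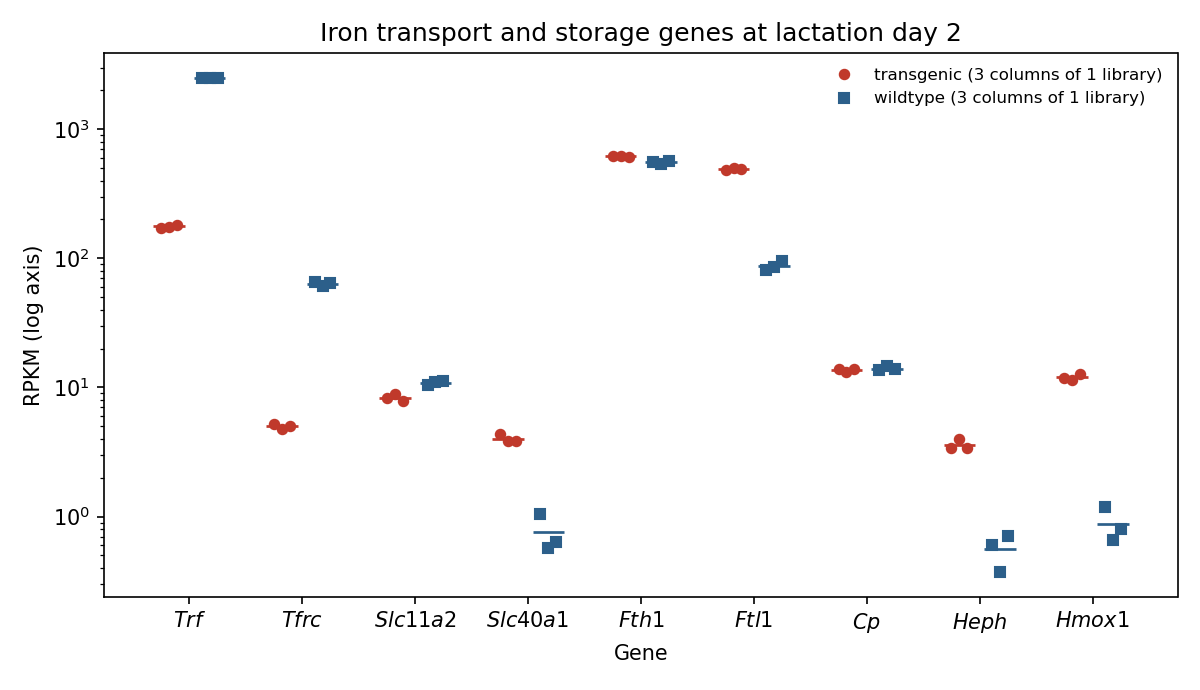
RPKM of the 9 iron genes (log axis), with a point for each of the 3 columns of a genotype, transgenic left of wildtype, and a line at their mean; columns of a genotype are 1 library. Trf and Tfrc lie more than 10-fold lower in the transgenic columns, Ftl1, Slc40a1, Heph and Hmox1 lie higher, and the Cp columns overlap.

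Within a library the levels, which RPKM sets per length, fell into a different order in each genotype. In transgenic glands the order was Fth1, Ftl1 and Trf (618, 491 and 176 RPKM), then Cp, Hmox1, Slc11a2 and Tfrc (13.7, 11.9, 8.33 and 5.001 RPKM), then Slc40a1 and Heph (4.002 and 3.61 RPKM). In wildtype glands it was Trf, Fth1, Ftl1 and Tfrc (2499, 553, 87.3 and 63.6 RPKM), then Cp and Slc11a2 (14.0 and 10.9 RPKM), then Hmox1, Slc40a1 and Heph (0.883, 0.757 and 0.560 RPKM). The columns of Slc40a1 and Heph overlapped in both genotypes and those of Hmox1 and Slc40a1 in wildtype glands, so the order of these neighbours is not set beyond their spread.

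Trf, which encodes the plasma and milk iron carrier transferrin (ENSMUSG00000032554, chr9:103204001-103230444, minus strand), was the most abundant iron gene in wildtype glands. It had 173, 176 and 181 RPKM in the transgenic columns, against 2494, 2501 and 2503 RPKM in the wildtype columns. The columns did not overlap, and the coefficient of variation was 2.14% over the transgenic and 0.196% over the wildtype columns. The log2 change was −3.82 in RPKM and −5.05 on the relative scale, and the log2 ratio with no pseudocount was −3.82 (−3.85 to −3.80), from 20692 reads in transgenic and 86978 reads in wildtype glands. By RPKM, Trf was gene number 122 in transgenic glands and number 14 in wildtype glands. In the annotation, 63.5% of its exonic bases also belong to Gm20425, a protein-coding model on the same strand, which had 162 RPKM in transgenic and 2222 RPKM in wildtype glands. The reads of these genes cannot be told apart where their exons coincide.

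As a share of all reads over genes, Trf took 0.0587% (Wilson interval 0.0579 to 0.0595) in transgenic and 0.831% (0.825 to 0.836) in wildtype glands. The 9 iron genes together took 0.208% and 0.950%, transgenic first. Without Trf the other 8 took 0.149% in transgenic and 0.120% in wildtype glands, but this order turned round, to 0.150% and 0.209%, transgenic first, once the milk genes were left out of the total. Trf was lower by less than Csn2, the beta-casein gene, was. The ratio of Trf to Csn2 was 0.837 (0.823 to 0.851) in the transgenic library and 0.0795 (0.0790 to 0.0801) in the wildtype library.

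Tfrc, the transferrin receptor (ENSMUSG00000022797, chr16:32608920-32632794, plus strand), changed by nearly as much as its ligand. It had 5.20, 4.76 and 5.05 RPKM in the transgenic columns, against 65.4, 60.9 and 64.5 RPKM in the wildtype columns. The lowest wildtype column was above every transgenic column by more than 10-fold. Its log2 change was −3.43 in RPKM and −4.53 on the relative scale, with a log2 ratio of −3.67 (−3.77 to −3.57) from 1085 and 4095 reads, transgenic first. None of its exonic bases is shared with another gene. Its rank by RPKM was 9991 in transgenic and 266 in wildtype glands. The ratio of Trf to Tfrc was 35.3 (33.2 to 37.5) in transgenic and 39.3 (38.1 to 40.6) in wildtype glands, a far smaller gap than that of either gene alone.

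Slc11a2, which encodes the divalent metal transporter DMT1 (ENSMUSG00000023030, chr15:100387898-100425072, minus strand), did not share the size of the Tfrc change. It had 8.27, 8.84 and 7.87 RPKM in the transgenic columns, against 10.4, 11.1 and 11.1 RPKM in the wildtype columns. The columns did not overlap, with the transgenic ones lower. In RPKM the log2 change was −0.35, within the threshold, and −1.46 on the relative scale, and the log2 ratio was −0.38 (−0.51 to −0.26). The ratio of Tfrc to Slc11a2 was 0.601 (0.557 to 0.648) in the transgenic library and 5.86 (5.41 to 6.35) in the wildtype library, so the order of these importers turned round. Slc11a2 shares 6.33% of its exonic bases with Gm5475 on the opposite strand, which had 0.370 RPKM in transgenic and 0.170 RPKM in wildtype glands.

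Slc40a1, which encodes ferroportin, the iron exporter (ENSMUSG00000025993, chr1:45908068-45926523, minus strand), was higher in transgenic glands but low in both genotypes. It had 4.33, 3.83 and 3.85 RPKM in the transgenic columns, against 1.06, 0.575 and 0.640 RPKM in the wildtype columns. Every transgenic column lay above every wildtype column, and the wildtype value rested on 71 reads, against 1265 in transgenic glands. The log2 change was 1.51, within the threshold, and 0.74 on the relative scale. With no pseudocount, which lessens the change of a gene this low, the log2 ratio was 2.40 (2.06 to 2.77), or 5.29-fold. Set against the receptor, Slc40a1 stood at 0.800 (0.737 to 0.869) of Tfrc in the transgenic library and at 0.0119 (0.00928 to 0.0150) of it in the wildtype library.

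The ferritin subunits, which build the shell that stores iron, differed from each other. Fth1 encodes the heavy chain, which oxidizes the iron that enters (ENSMUSG00000024661, chr19:9980598-9985098, plus strand). It had 622, 625 and 607 RPKM in the transgenic columns, against 553, 539 and 568 RPKM in the wildtype columns. The columns did not overlap, yet the log2 change was only 0.16 (ratio interval 0.11 to 0.20) in RPKM, and it was −1.08 on the relative scale, so its direction turned with the scaling. Fth1 was among the most abundant genes of both libraries, number 18 in transgenic and number 33 in wildtype glands.

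Ftl1 encodes the light chain, which aids the build-up of the iron core (ENSMUSG00000050708, chr7:45457944-45459884, minus strand). It had 484, 497 and 491 RPKM in the transgenic columns, against 80.7, 85.2 and 95.9 RPKM in the wildtype columns. The transgenic columns were all more than 5-fold above the highest wildtype column. The log2 change was 2.48, past the threshold, and 1.25 on the relative scale, within it, and the log2 ratio was 2.49 (2.41 to 2.58) from 23231 and 1226 reads, transgenic first.

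Within each library, where scaling has no part, the heavy and light chains stood closer together in transgenic glands. The ratio of Fth1 to Ftl1 was 1.26 (1.23 to 1.28) in the transgenic library and 6.34 (5.96 to 6.75) in the wildtype library, and the column ratios ran 1.24 to 1.28 and 5.92 to 6.85, transgenic first. The ferritins together took 0.120% of the reads over genes in transgenic and 0.0597% in wildtype glands, or 0.120% and 0.104% without the milk genes in the total. These values are uncertain for a reason of annotation. The genome holds near-identical ferritin copies, Fth and Ftl pseudogenes among them. How the counting treated reads that fit several places is not given in the sources used here. Gm10116, which also has a 5′ UTR hairpin of the form shown above, had 288 RPKM in transgenic and 46.5 RPKM in wildtype glands. Whether it is a light-chain copy that shares reads with Ftl1 was not tested. In addition, 34.6% of the exonic bases of Ftl1 are shared with Gm10252 on the opposite strand and with the miRNA gene Gm22133, neither of which is a row of the table. The ratio between the chains also rests on the gene lengths used for RPKM. For Fth1 the length inferred from the RPKM steps was 866 bases, against 3469 in the annotation. That length cancels when the genotypes are compared.

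**Figure D2:**
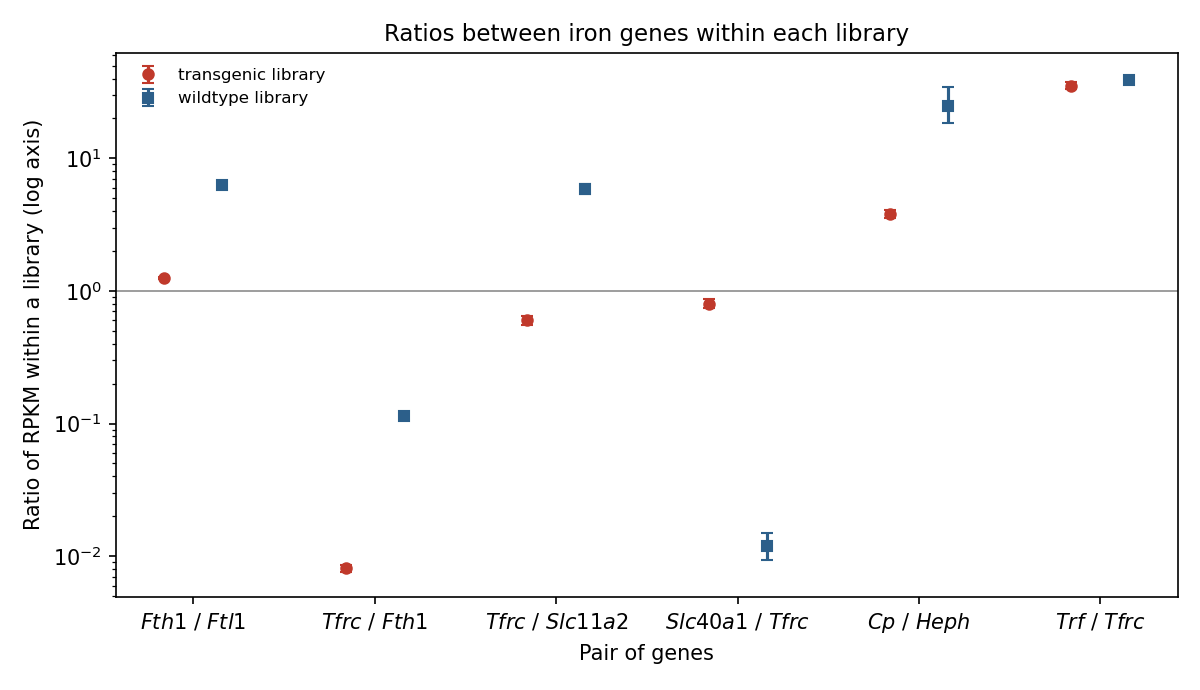
Ratios of RPKM between pairs of iron genes within each library (log axis), transgenic left of wildtype, with 95% counting intervals. The Fth1 to Ftl1 ratio was 1.26 and 6.34, and the Tfrc to Slc11a2 ratio 0.601 and 5.86, transgenic first, while the Trf to Tfrc ratio was 35.3 and 39.3.

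The storage and uptake genes that carry the hairpins shown above therefore parted. Tfrc stood at 0.00810 (0.00761 to 0.00861) of Fth1 in the transgenic library and at 0.115 (0.110 to 0.120) of it in the wildtype library, that is, 123 and 8.70 RPKM of Fth1 for each RPKM of Tfrc. Among the genes with a 5′ UTR hairpin, the log2 changes in RPKM were 0.16 for Fth1, 2.48 for Ftl1 and 1.51 for Slc40a1. The near-identical hairpins of Fth1 and Ftl1 thus went with different changes in mRNA level. These are mRNA levels, and the translation that 5′ UTR hairpins govern was not measured.

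The ferroxidases oxidize iron as it leaves the cell, ceruloplasmin in plasma and on some cell surfaces, and hephaestin in the membrane. Cp (ENSMUSG00000003617, chr3:19957054-20009145, plus strand) had 13.8, 13.2 and 14.0 RPKM in the transgenic columns, against 13.6, 14.5 and 13.9 RPKM in the wildtype columns. It was the only one of the 9 genes whose columns overlapped between genotypes. The log2 ratio was −0.04 (−0.13 to 0.05) in RPKM, and on the relative scale the change was −1.18. Cp shares 1.13% of its exonic bases with Hps3, which had 12.0 RPKM in transgenic and 7.13 RPKM in wildtype glands.

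Heph (ENSMUSG00000031209, chrX:96455359-96574485, plus strand) was higher in transgenic glands but low in both genotypes. It had 3.42, 4.01 and 3.38 RPKM in the transgenic columns, against 0.598, 0.373 and 0.710 RPKM in the wildtype columns. The columns did not overlap, and the wildtype library held 45 reads of it, against 976 in the transgenic library. Its log2 change was 1.56, within the threshold, and 0.85 on the relative scale, and the log2 ratio was 2.69 (2.26 to 3.15), or 6.44-fold. Cp stood at 3.79 (3.53 to 4.06) times Heph in transgenic and at 25.0 (18.6 to 34.5) times Heph in wildtype glands. Heph shares 0.378% of its exonic bases with Hsf3, listed at 0 in the wildtype columns and at 0.132 RPKM in transgenic glands.

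Hmox1, the inducible heme oxygenase, which frees iron from heme and is highly expressed by macrophages that clear red blood cells, had the highest log2 change of the 9 genes with a pseudocount of 1, though not with a pseudocount of 5, where it was 1.53 and that of Ftl1 was 2.43 (ENSMUSG00000005413, chr8:75093621-75100589, plus strand). It had 11.7, 11.4 and 12.7 RPKM in the transgenic columns, against 1.19, 0.662 and 0.795 RPKM in the wildtype columns. Every transgenic column was above every wildtype column, and the wildtype value rested on 20 reads, against 912 in transgenic glands. The log2 change was 2.78, past the threshold, and 1.90 on the relative scale, just within it. With no pseudocount the log2 ratio was 3.76 (3.12 to 4.48). The relative-scale change with no pseudocount was 5.75-fold, beyond the 4-fold that the threshold stands for. Its length inferred from the RPKM steps, 2161 bases, differs from the 1751 exonic bases of the annotation, and it shares no exonic base with another gene.

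**Figure D3:**
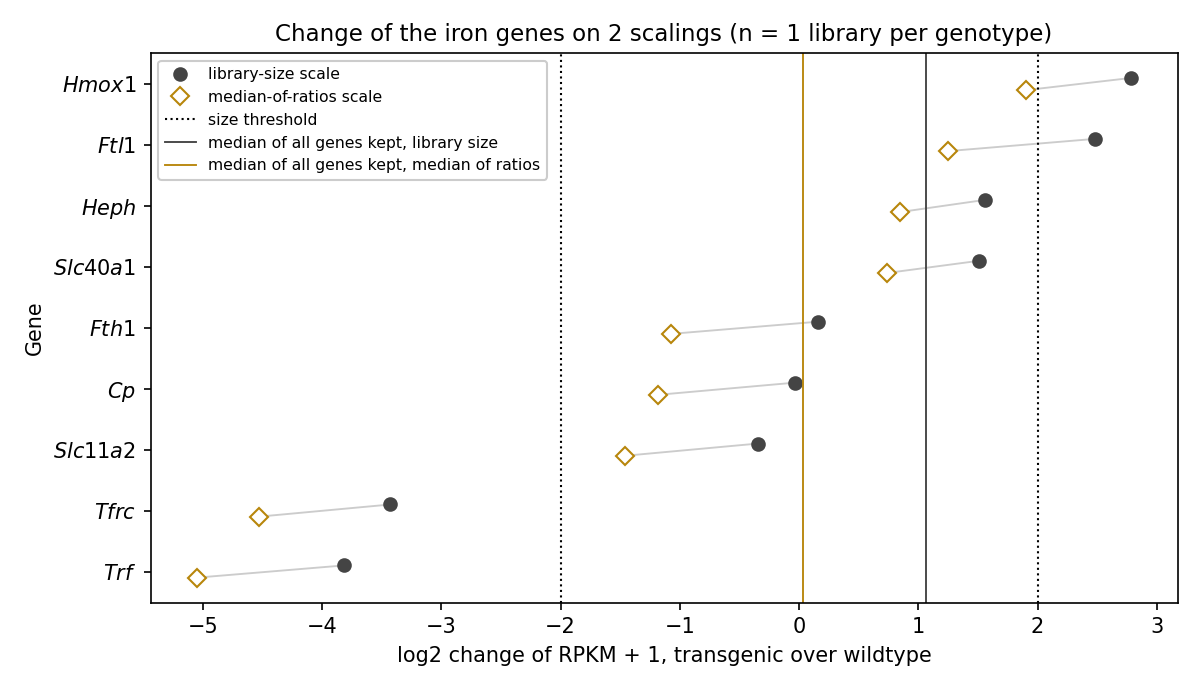
Log2 change of RPKM + 1 for each iron gene, transgenic over wildtype, in RPKM (filled circles) and on the relative scale (open diamonds), with the size threshold of 2 (dotted) and the median of all genes kept on each scale. Trf and Tfrc lie beyond −2 on both scales; Ftl1 and Hmox1 lie beyond 2 only in RPKM.

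Counted by columns alone, 8 of the 9 genes did not overlap between genotypes, 5 with the transgenic columns higher and 3 with them lower. Over all genes kept, 83.6% did not overlap with the transgenic columns higher and 9.67% with them lower, so the absence of overlap is the usual state in this table and says little of any gene.

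The members can be set beside the genes whose pair of levels was nearest, measured as the Euclidean distance in log2(RPKM + 1) over the 2 libraries. With so few points this describes likeness of level only. Nearest to Trf were Gm20425 (distance 0.211), the mitochondrial gene mt-Atp8 (1.14) and Lalba (1.62), the milk protein gene for alpha-lactalbumin. Gm20425 overlaps 63.5% of the exonic bases of Trf, so its closeness may come from the same reads. By these distances mt-Atp8 and Lalba were not close to Trf in level. Nearest to Tfrc were Atp2c2 (0.197), which encodes a calcium and manganese pump of the secretory pathway, Slc39a8 (0.297), a metal importer, and Zcchc17 (0.383). Ftl1 was nearest to the lysosomal gene Psap (0.0610), the class I antigen subunit B2m (0.136) and the hemoglobin gene Hba-a2 (0.189). Hmox1 was nearest to Cul7 (0.0482), Cerk (0.0860) and Stoml1 (0.0942).

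Other genes of iron and heme handling were read from lists of 65 genes, of which 63 were matched in the table and 57 passed the filter. In RPKM, 6 of the 57 were called higher (10.5%, against 16.1% of all genes kept) and 2 lower (3.51%, against 1.23%), and their median log2 change was 0.96. On the relative scale 1 was called higher (1.75%, against 4.17%) and 5 lower (8.77%, against 3.66%), with a median of −0.11. For 25 of the 57, RPKM and the relative scale gave opposite signs.

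The accessory uptake list, 10 genes kept, had 2 called lower and 2 higher in RPKM, and 4 lower and none higher on the relative scale. Over all genes kept, 1.23% were called lower and 16.1% higher in RPKM, and 3.66% and 4.17% on the relative scale. Slc39a8, which brings zinc, manganese and iron into cells, had 6.30 RPKM in transgenic and 59.7 RPKM in wildtype glands, with log2 changes of −3.06 in RPKM and −4.18 on the relative scale. Slc39a14, a related importer that also takes up iron not bound to transferrin, had 10.7 and 42.2 RPKM, transgenic first (−1.89 and −3.05). Steap1, a metalloreductase family member, had 0.0822 RPKM in transgenic and 12.4 RPKM in wildtype glands, from 4 and 179 reads. Its log2 change was −3.63 in RPKM and −4.25 on the relative scale. Steap2, a ferrireductase, had 1.33 and 7.91 RPKM, transgenic first, called lower on the relative scale alone (−2.82).

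The same list held genes called higher in RPKM. Steap4, a ferrireductase of fat and inflamed tissue, had 32.7 RPKM in transgenic and 4.23 RPKM in wildtype glands, a log2 change of 2.69. Scara5, a ferritin receptor, had 12.2 and 1.03 RPKM, transgenic first, a log2 change of 2.70. Both lay within the threshold on the relative scale, at 1.57 and 1.79. Among the iron and heme binding proteins of milk and plasma, Ltf, the milk protein lactoferrin, had 36.3 RPKM in transgenic and 114 RPKM in wildtype glands (−1.62 in RPKM, −2.83 on the relative scale), so it differed from Trf in size but not in direction. Hp, which encodes the hemoglobin scavenger haptoglobin, had 47.9 RPKM in transgenic and 0.710 RPKM in wildtype glands, from 2270 and 10 reads. Its log2 change was 4.84 in RPKM and 3.94 on the relative scale, the only pathway gene called higher on both with the pseudocount of 1. That pseudocount lessens the change of genes low in wildtype glands, such as Scara5.

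The remaining lists are read against the same 16.1% called higher and 1.23% called lower in RPKM. Of the 9 regulators of iron balance kept, only Tmprss6, a protease that lowers hepcidin signaling in liver, was called (4.80 RPKM in transgenic and 0.359 RPKM in wildtype glands, log2 change 2.09). Of the 9 heme synthesis genes kept, only Alad, an early enzyme of the pathway, was called (19.4 and 3.82 RPKM, transgenic first, 2.08). Of the 4 genes of heme transport and breakdown kept, only Blvrb, a biliverdin reductase that acts downstream of heme oxygenase, was called (13.5 and 1.56 RPKM, transgenic first, 2.50). All of these lay within the threshold on the relative scale, at 1.41, 0.99 and 1.53. None of the 5 genes of intracellular iron handling or the 17 of iron-sulfur cluster assembly was called on either scale, and the iron-sulfur list had a median of 0.88 in RPKM and −0.22 on the relative scale.

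**Figure D4:**
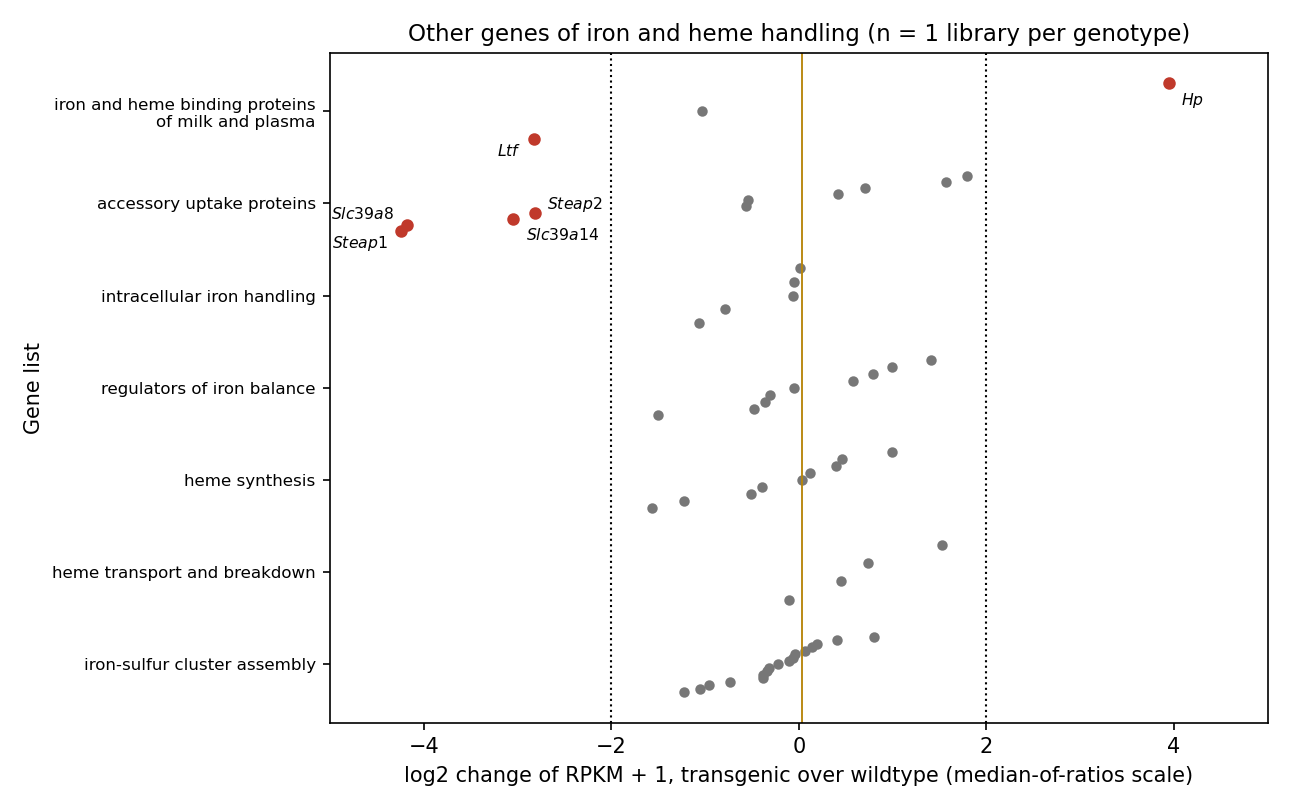
Log2 change of RPKM + 1 on the relative scale for the 57 other iron and heme genes kept, grouped by list, with the threshold of 2 (dotted) and the median of all genes kept (solid line). Hp lies beyond 2 and Steap1, Slc39a8, Slc39a14, Steap2 and Ltf beyond −2 (all named, red); the spread of points down a list has no meaning.

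Markers of other cell types moved with these genes. All 10 markers of secretory alveolar cells were called lower on both scales. Over all genes kept the shares called lower were 1.23% in RPKM and 3.66% on the relative scale. The 10 markers summed to 1230 to 1246 RPKM in the transgenic columns and 140999 to 141530 RPKM in the wildtype columns. Wap led them, with 58.2 RPKM in transgenic and 35927 RPKM in wildtype glands. These markers moved with the lower Trf and Tfrc. Of 11 macrophage markers kept, 10 were called higher in RPKM (against 16.1% of all genes kept) and 5 on the relative scale (against 4.17%). Spic lay within the threshold. The macrophage list summed to 404 to 409 RPKM in the transgenic columns and 37.1 to 43.0 RPKM in the wildtype columns. It was led by Lyz2, with 189 RPKM in transgenic and 7.31 RPKM in wildtype glands. Vsig4 and Timd4 were at 0 in the wildtype columns. Hmox1 and Ftl1 were higher too, as were Slc40a1 and Heph within the threshold and Fth1, by little, in RPKM alone. So were other lists given below: the median relative change was 1.91 for macrophage, 3.58 for B and T cell, 3.17 for adipocyte and 2.66 for fibroblast markers. Which cells carry the higher iron genes was not tested.

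The other marker lists are read against the 16.1% of all genes kept that were called higher in RPKM and the 4.17% on the relative scale. The red blood cell list had 2 of 4 genes kept called higher in RPKM and none on the relative scale, with a sum of 1433 to 1462 RPKM in the transgenic columns and 340.0 to 355 RPKM in the wildtype columns, led by Hba-a1 with 533 RPKM in transgenic and 101 RPKM in wildtype glands. Of 10 adipocyte markers, 9 were called higher in RPKM and 7 on the relative scale, with Cidea lower on both, and with a sum of 2182 to 2201 RPKM in the transgenic columns and 407 to 412 RPKM in the wildtype columns, led by Cfd (907 and 36.6 RPKM, transgenic first). B and T cell markers had 7 of 9 called higher in RPKM and 6 on the relative scale, led by Cd3e (72.5 and 1.20 RPKM). The study's methods state that lymph nodes were taken out, before digestion, of glands collected for RNA analysis. They do not say whether the tissue slides that were sequenced were free of lymph nodes. Fibroblast markers had 6 of 6 called higher in RPKM and 5 on the relative scale, led by Col3a1 (410.2 and 21.7 RPKM). Luminal, basal and endothelial markers had 4 of 8, 1 of 6 and 2 of 6 called higher in RPKM, and 1, 0 and 0 on the relative scale, led by Krt18 (134 and 18.5 RPKM), Acta2 (253 and 77.7 RPKM) and Cdh5 (46.5 and 12.9 RPKM), each transgenic first. The part of any of these lists in the changes of the iron genes was not tested.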

How the data were processed

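RNA from mammary tissue slides was depleted of ribosomal RNA and sequenced as single reads. The authors aligned the reads with TopHat2 (2.0.7) to GRCm38/mm10 and estimated RPKM per gene with SAMMate and Ensembl gene models. The deposited values are RPKM, in which each library is set to its own total and not corrected for makeup. Whether counting used strand is not given in the sources used here. Deposited columns of means, log2 fold changes and fold changes hold the authors' own comparison and were not used.

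For any gene, 1 read adds a fixed step to RPKM, and these steps gave back the column depths and the reads per gene. At the annotated exonic length, 8699 of the 18308 genes above 0 came out whole within 1e-05 reads. For the rest the length was the smallest that made the reads whole, so their wholeness is no check. Tfrc, Slc40a1, Fth1, Cp and Hmox1 are among these, and their read counts rest on the inferred length. A further 3642 genes were at 0. The method was tested on simulated data. Coordinates and shared exons are from GENCODE M21, which holds 21748 of the 21950 gene IDs.

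Columns of a genotype were averaged and counted as 1 library. Genes averaging 2 RPKM or more in transgenic or in wildtype glands were kept, and a size rule took the place of a test: an absolute log2 change beyond 2, with a pseudocount of 1 RPKM. This scale understates the change of low genes. Read ratios have exact 95% intervals and shares Wilson intervals. Alternatives were 3 other scalings, pseudocounts of 0.1 and 5, no filter, and leaving out each column.

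The genes named are the 9 members, pathway genes past the threshold on either scale, the gene of each marker list with the highest mean RPKM, the 3 genes nearest to each called member, and genes whose exons overlap a member. Beyond this rule Csn2, Spic, Cidea, Vsig4, Timd4 and Gm10116 are named, chosen after their values were seen. Members and lists were chosen with earlier results of these data known. Python 3.11.15, numpy 2.4.6, pandas 2.3.3 and scipy 1.17.1 were used.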

Additional observations from a re-analysis of the deposited data

How the results depend on the processing

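Trf and Tfrc stayed past the threshold as lower in all 12 alternatives, with log2 changes of −5.05 to −3.79 for Trf and −4.53 to −2.78 for Tfrc. Ftl1 (1.25 to 2.55) and Hmox1 (1.53 to 3.62) stayed past it as higher in 9 of 12 each. Most of the alternatives could hardly move a call: a column left out belongs to the same library, and all 9 genes pass the filter. Ftl1 fell within the threshold under all 3 other scalings (1.25, 1.32 and 1.69). Hmox1 fell within it with median-of-ratios (1.90), the trimmed mean (1.95) and a pseudocount of 5 (1.53). Fth1 changed sign under 3 alternatives, the other scalings, and no other iron gene changed sign. Counts of iron genes called higher, in place of 2, were 0 with median-of-ratios and trimmed-mean scaling, 1 without the 10 milk genes in the library size, 4 with a pseudocount of 0.1 (Slc40a1 and Heph joined) and 1 with a pseudocount of 5. The median log2 change of the 9 genes, 0.16 in RPKM, was −1.08, −1.001 and −0.64 under the 3 scalings in that order. For pathway genes, 6 higher and 2 lower in RPKM, the counts were 1 and 5 with median-of-ratios, 1 and 5 with the trimmed mean, and 3 and 5 without the milk genes; 11 were higher with a pseudocount of 0.1, and 2 were higher and 1 lower with a pseudocount of 5. Over all genes kept, 16.1% were called higher and 1.23% lower in RPKM, and 4.17% and 3.66% with median-of-ratios. No such share was worked out for the other scalings and pseudocounts. Their counts therefore cannot be told apart from a shift of the whole table. The wildtype share of reads over the iron genes was 1.66% without the milk genes in the total. Leaving out each column gave 2 and 2 iron genes throughout, medians of 0.14 to 0.18, 6 to 7 pathway genes higher and 2 lower, and shares of 0.207% to 0.209% in transgenic and 0.948% to 0.951% in wildtype glands. With no filter the iron genes kept their calls. No paired analysis was possible because the result comes from no test and the columns of a genotype were counted as 1 library. The depth limits the low wildtype genes most: Hmox1, Heph and Slc40a1 rested on 20, 45 and 71 reads.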

Other observations

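Genes outside the iron set with a hairpin of the iron-responsive form, chosen by sequence alone, were described in the same way. Of those with a match in the 5′ UTR, 16 passed the filter, of which 2 were called higher and none lower in RPKM, and 1 higher and none lower on the relative scale, with medians of 1.25 and 0.12. Of those with a match in the 3′ UTR, 72 passed, of which 12 were called higher and none lower in RPKM, and 2 higher and 4 lower on the relative scale, with medians of 1.10 and 0.057. Over all genes kept, 16.1% were called higher and 1.23% lower in RPKM, and 4.17% higher and 3.66% lower on the relative scale. The counts are not read as a result about the hairpins. Gm10116 was among the 5′ UTR genes called higher in RPKM, at 2.61, and whether it is a ferritin copy was not tested. The medians of both groups lay near those of all genes kept, 1.06 in RPKM and 0.036 on the relative scale. Among the iron and heme genes listed, the matches were Alas2, the erythroid form of the first enzyme of heme synthesis, in its 5′ UTR, with 13.8 RPKM in transgenic and 4.33 RPKM in wildtype glands, and Bola3, an iron-sulfur cluster gene, in its 3′ UTR, with 8.84 RPKM in transgenic and 2.67 RPKM in wildtype glands. Both were named after their values were seen, and neither passed the size threshold.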
